A study of Mus musculus with 21 samples.

Results

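Fendrr is a long noncoding RNA gene that lies head to head with the forkhead transcription factor gene Foxf1a (also named Foxf1), and the 8 genes described here are the transcribed entries at and around this pair together with 1 paralog. They were chosen by name among 42760 genes of the lung table: linc-Cox4nb-4, the entry that covers Fendrr; linc-Foxf1a-1, a weakly expressed entry at the same position; the coding neighbours Foxf1a, Foxc2, Foxl1 and Mthfsd; the more distant noncoding entry linc-Slc7a5-AS; and Foxf2, the paralog of Foxf1a on chromosome 13. RNA-Seq was made from E14.5 lungs of Fendrr knockout (labelled linc-Foxf1a-/-) and wild-type littermate (linc-Foxf1a+/+) embryos. Brains of other lincRNA knockout strains served here as the contrast: the Peril strain at E18.5 (linc-Sox2-/- and linc-Sox2+/+), and the linc-Brn1b strain (linc-Brn1b-/- and linc-Brn1b+/+) as E13.5 and E15.5 telencephalon and as whole brain at P7. In all 3 strains the lincRNA was replaced with a lacZ reporter cassette that carries a floxed neomycin gene under the human ubiquitin C promoter, in hybrid VGF1 embryonic stem cells, and the mice were backcrossed once with C57BL/6J. The labels give 2 libraries for each of the 10 groups, except for the knockout at E15.5, for which they list 3 where the paper states 2.

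Forkhead genes encode transcription factors with a winged helix DNA-binding domain. Foxf1a acts in the mesenchyme of lung and gut, where it responds to hedgehog signals from the epithelium and is needed for blood vessel formation, and Foxf2 overlaps with it in many mesenchymal tissues. Foxc2 acts in blood and lymph vessels and in the mesoderm, and Foxl1 in the mesenchyme of the gut. Mthfsd encodes a protein with a methenyltetrahydrofolate synthetase domain. Fendrr is transcribed in lateral plate mesoderm and its derivatives, and has been described as a partner of the Polycomb repressive complex PRC2.

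The sequences that define the mutation are shown first, because they set what the Fendrr entry can still measure in knockout lung. The annotated transcript has 6 exons on the minus strand of chromosome 8 (mm9), between 123578782 and 123606932. The deletion, from 123578782 to 123597965, removes 19184 bases of genomic sequence and 2316 of the 2380 bases (97.3%) of that transcript. What is left of the transcript is exon 1 and the first 5 bases of exon 2, 64 bases in all, and the 1353 bases between the annotated starts of Fendrr and Foxf1a are left as well. Exon 1 lies outside the deletion, and the edge crosses exon 2. In the edge sequence, read in the direction of Fendrr, lower case marks the 30 bases that stay and capitals mark the first 30 bases that are lost.
Exon 1, chr8:123606874-123606932, minus strand: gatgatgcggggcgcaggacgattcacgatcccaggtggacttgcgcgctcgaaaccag
Edge of the deletion, chr8:123597936-123597995, minus strand: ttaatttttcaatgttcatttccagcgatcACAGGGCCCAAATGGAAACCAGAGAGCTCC
Both primers of the quantitative RT-PCR pair for Fendrr lie within the deleted part, the forward primer in exon 3 (chr8:123589510-123589527) and the reverse primer in exon 4 (chr8:123588844-123588861). Each has 1 exact match on chromosome 8.
RT-PCR forward primer: gaccttcccggatctcca
RT-PCR reverse primer: caggagggcacaaagacc
The genotyping pair lies in the deleted part of exon 2 and therefore reports the presence of the wild-type allele (chr8:123597912-123597930 and chr8:123597856-123597877).
Genotyping forward primer: ggccacagcggtcagttac
Genotyping reverse primer: tctggtggagtcagatcaaacg

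The promoter of Fendrr stays on the knockout allele. RefSeq promoter windows (250 bases before to 50 after a gene start, GRCm38.p6) were available for 3 of the 6 genes looked for, Fendrr, Mthfsd and Foxf2, and those of Foxf1, Foxc2 and Foxl1 were not used here. The Fendrr window, chr8:121083061-121083360 on the minus strand of GRCm38.p6, has 1 exact match in mm9, at chr8:123606961-123607260, above the upper end of the deletion. It is printed because it remains in front of exon 1 on the knockout allele, and capitals mark a match to the forkhead core GTAAACA (or TGTTTAC on the other strand).
Fendrr promoter: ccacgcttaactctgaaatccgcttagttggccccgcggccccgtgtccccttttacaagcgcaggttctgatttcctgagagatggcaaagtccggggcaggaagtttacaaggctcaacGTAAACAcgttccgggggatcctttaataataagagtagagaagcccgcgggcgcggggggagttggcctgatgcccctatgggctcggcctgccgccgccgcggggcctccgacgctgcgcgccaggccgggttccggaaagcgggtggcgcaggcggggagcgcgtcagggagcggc
The match begins at position -129 relative to the RefSeq start. The forkhead core was present in 3.65% of all 32851 promoter windows of this length and in neither the Mthfsd nor the Foxf2 window. The Fendrr window held no TATA box (TATAAA, in 13.6% of all windows), no CCAAT box (37.4%), no GC box (GGGCGG, 35.7%) and no hedgehog-responsive GLI site (GACCACCCA, 0.253%) on either strand. Its GC content was 64.7%, against a median of 52.7% over all windows. These matches describe letters, not bound sites.

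Expression is given in FPKM, a fragment count scaled by transcript length and by library size, of which the authors deposited 1 value per group. The spread between embryos and the depth are unknown, so no difference below carries an error or a test. A difference is that of log2(FPKM + 1), knockout minus wild type, and a gene is counted as lower or higher at a difference of 0.5 or more if it reached 1 FPKM in either group. Levels are comparable between genes because FPKM is per length, but the 3 tables were normalized separately. Some levels of linc-Cox4nb-4, Foxf1a and Foxc2 are therefore also given as percentiles among the genes above 0 FPKM in their group. All other levels are given in FPKM only. The lung groups were checked by their markers: all 10 lung epithelium markers were at 1 FPKM or more, with summed levels of 1466 (wild type) and 1480 FPKM (knockout), among them Nkx2-1 at 61.4 and 53.1 FPKM. The 10 brain markers summed to 26.3 and 25.5 FPKM in lung, with 4 of them at 1 FPKM or more (Dcx, Fabp7, Stmn2 and Tubb3, the highest being Fabp7 at 8.88 and 5.78 FPKM) and 3 listed at 0 in knockout lung (Emx1, Neurod6 and Sox1). The 4 Y-linked genes summed to 33.6 FPKM in wild-type lung and 0 in knockout lung, to 0.0256 and 26.4 FPKM in the Peril brain groups, and to 49.2 and 0.0133, 0.00662 and 21.0, and 0.0357 and 23.2 FPKM in the linc-Brn1b groups from E13.5 to P7 (wild type first). Y-linked transcripts were thus abundant in the wild-type group in lung and at E13.5, and in the knockout group in the other brain comparisons. The sex makeup therefore differed between the genotype groups of every comparison. Sex and genotype cannot be told apart in any difference below.

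Fendrr was among the well expressed genes of wild-type lung and was nearly undetected in knockout lung. The entry linc-Cox4nb-4 stood at 38.4 FPKM in wild-type lung (percentile 91.5) and at 0.0450 FPKM in knockout lung (percentile 18.6), which is 0.117% of wild type. The difference was -5.24, and 0.0981% of the 14265 genes at 1 FPKM or more differed by as much or more downwards. linc-Foxf1a-1, which shares the locus chr8:123577969-123607022, had 0.352 FPKM in wild-type against 0.0100 FPKM in knockout lung. It did not reach 1 FPKM and was not counted, and its reads cannot be separated with certainty from those of linc-Cox4nb-4. Both entries of the locus were thus lower in the lungs that lack the deleted sequence.

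In brain the same locus was close to silent. linc-Cox4nb-4 had 0.219 FPKM in wild-type against 0.235 FPKM in Peril knockout E18.5 brain, and linc-Foxf1a-1 had 0.0210 and 0.0256 FPKM. Neither name is listed in the linc-Brn1b table, which rests on a separate transcript assembly. There, 3 other entries cover the position, chosen by coordinates after the values were seen: AK004221, linc-Foxf1-1 and linc-Emc8. The highest value of any of them in telencephalon or P7 brain was 0.307 FPKM, for linc-Foxf1-1 in P7 wild-type brain. The residual level in Fendrr knockout lung (0.0450 FPKM) was below both Peril brain values.

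Foxf1a, whose start lies 1.354 kb from that of Fendrr, was the forkhead gene with the highest level in wild-type lung among those measured. It was measured at 36.6 FPKM (percentile 91.0) without and 24.8 FPKM (percentile 86.7) with the deletion, which is 67.8% of wild type. The difference was -0.54, and 1.18% of the genes at 1 FPKM or more were at or below it. Foxf1a thus lay just past the limit of 0.5 and differed far less than Fendrr itself. The paper, which tested this contrast, reported no significant change of Foxf1a in the knockout lung. Its values in brain were at most 0.374 FPKM (percentile 40.2), in wild-type E18.5 brain, so that both lung values lay far above all 8 brain values. In the Peril brain it stood at 0.374 and 0.241 FPKM, and in the linc-Brn1b comparisons at 0.0820 and 0.0690 FPKM at E13.5, 0.0715 and 0.0815 FPKM at E15.5, and 0.237 and 0.173 FPKM at P7. None of these reached the minimum, and no fold is drawn from them.

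**Figure D1:**
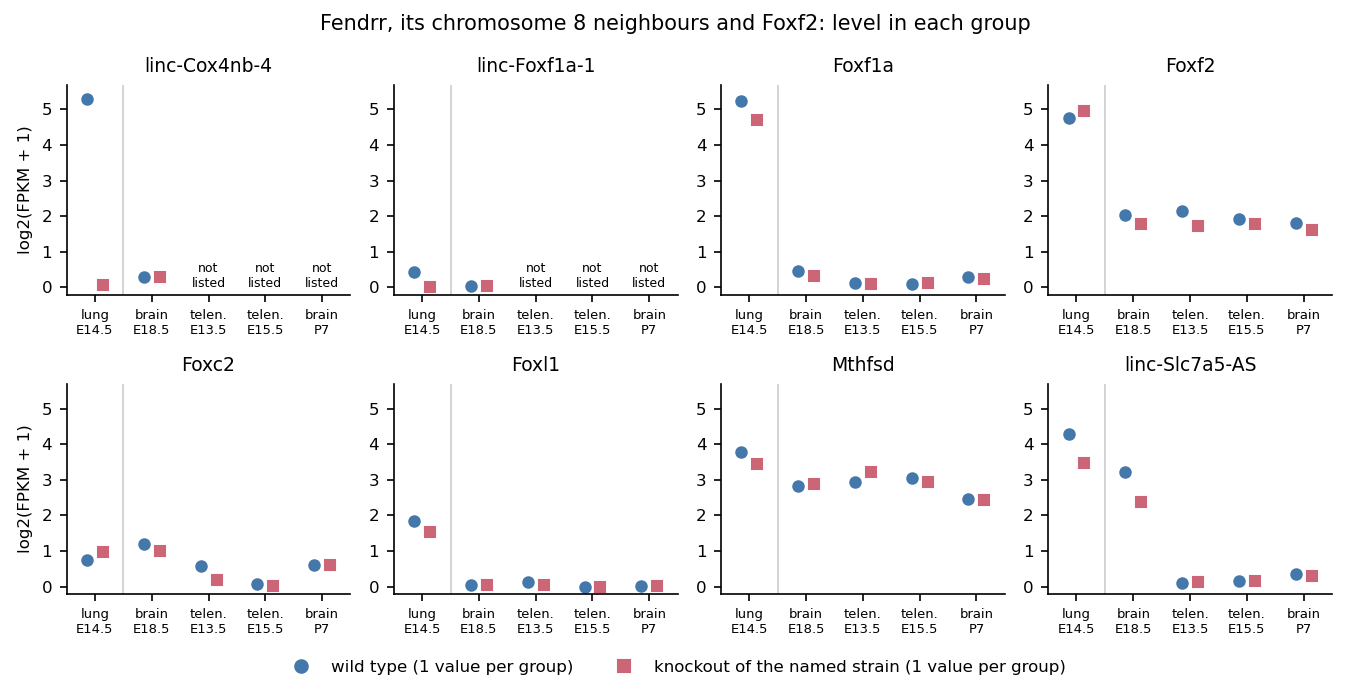
Levels of the 8 genes as log2(FPKM + 1) on the vertical axis in wild-type (circles) and knockout (squares) groups, with E14.5 lung of the Fendrr strain, E18.5 brain of the Peril strain and the 3 linc-Brn1b ages along the horizontal axis; each point is 1 deposited group value with no error. linc-Cox4nb-4 lies at 5.30 in wild-type and at 0.06 in knockout lung, and Foxf1a lies at 5.23 and 4.69 in lung and at 0.46 or less in brain.

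Foxf2, the paralog on chromosome 13, did not share the direction of Foxf1a. It had 25.9 FPKM in wild-type against 30.2 FPKM in Fendrr knockout lung, a difference of 0.21 that did not reach 0.5. The order of the paralogs was therefore Foxf1a above Foxf2 in wild-type lung and Foxf2 above Foxf1a in knockout lung. Whether either order lies beyond the spread between embryos cannot be judged from group values. The lung table gives Foxf2 a locus from 31648013 to 31723275, wider than the annotated gene (31717685 to 31723272), so its value may include neighbouring transcription.

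In brain Foxf2 was the forkhead member with the highest level at every age. It stood at 3.09 and 2.41 FPKM in wild-type and Peril knockout E18.5 brain. In the linc-Brn1b strain it stood at 3.47 and 2.32 FPKM at E13.5, 2.77 and 2.45 FPKM at E15.5, and 2.49 and 2.08 FPKM at P7. Foxf2 was lower in the knockout in each of the 4 brain comparisons, with differences from -0.43 at E13.5 to -0.13 at E15.5, none of them past 0.5. Foxf2 is known as a gene of brain pericytes, and most of the 12 meningeal and mural cell markers were also lower in the knockout: 12 of 12 at 1 FPKM or more lay below 0 in Peril brain (1 of them by 0.5), 12 of 12 at E13.5 (6 by 0.5), 5 of 6 at E15.5 (0 by 0.5) and 11 of 11 at P7 (2 by 0.5). The summed level of the 12 was 145 and 108 FPKM in the Peril brain groups, 88.3 and 54.1 FPKM at E13.5, 37.8 and 35.3 FPKM at E15.5, and 128 and 99.97 FPKM at P7, with no marker at 0. Among all genes, 49.15% (Peril), 40.98% (E13.5), 46.59% (E15.5) and 48.01% (P7) lay below 0. In the same order, 3.07%, 10.1%, 0.71% and 6.94% of all genes passed 0.5 in either direction. The part of these markers in the Foxf2 values was not tested. Across bulk tissue, fewer cells of a type and less RNA per cell cannot be told apart.

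The remaining forkhead neighbours were weakly expressed in lung. Foxl1, whose annotated start lies 44.9 kb from that of Fendrr, had 2.57 FPKM in wild-type against 1.91 FPKM in knockout lung, a difference of -0.30. In brain Foxl1 was at most 0.0876 FPKM and was listed at 0 in knockout telencephalon at E15.5. Foxc2, whose start lies 33.1 kb from that of Fendrr, had 0.684 FPKM in wild-type against 0.959 FPKM in knockout lung. It was the only chromosome 8 member with a higher value in knockout lung, and it did not reach 1 FPKM. Its highest value, 1.31 FPKM, was in wild-type E18.5 brain (percentile 51.4), beside 1.012 FPKM in Peril knockout brain (percentile 46.3). The wild-type and knockout lung values were at percentiles 42.6 and 48.5. In the linc-Brn1b strain Foxc2 stood at 0.490 and 0.143 FPKM at E13.5 and at 0.0444 and 0.0163 FPKM at E15.5. At P7 it stood at 0.527 and 0.512 FPKM (percentiles 44.1 and 44.3). By percentile, Foxc2 thus had no constant order between lung and brain.

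Mthfsd is broadly expressed and was above 4 FPKM in every group. It had 12.8 FPKM in wild-type against 10.001 FPKM in Fendrr knockout lung, a difference of -0.32. In brain it lay between 4.42 FPKM in P7 knockout and 8.42 FPKM in E13.5 knockout tissue, with differences from -0.12 to 0.29 and no constant direction. An antisense entry, linc-Mthfsd-AS, shares its locus, and the library kit did not mark the strand, so their reads cannot be told apart where they overlap.

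linc-Slc7a5-AS, whose table start lies 750 kb from the end coordinate of linc-Cox4nb-4, was lower in knockout in 2 strains. It had 18.45 FPKM in wild-type against 10.2 FPKM in Fendrr knockout lung, 55.4% of wild type, a difference of -0.79. In Peril E18.5 brain, where Fendrr is intact, the wild-type and knockout values were 8.34 and 4.16 FPKM, 49.9% of wild type, a difference of -0.86. In the linc-Brn1b table, where the locus that holds the entry begins at 124373761 and not at 124356889, it stood at no more than 0.278 FPKM in any group. Whether the entry covers the same sequence in all tables was not tested. The coding gene Slc7a5, an amino acid transporter gene at the same locus, stood at 15.1 and 13.97 FPKM in lung and at 38.6 and 42.9 FPKM in Peril brain. linc-Klhdc4, another entry of this locus, stood at 2.49 and 1.40 FPKM in lung and at 1.10 and 0.468 FPKM in Peril brain. Without strand, the reads of these overlapping entries cannot be assigned with certainty.

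**Figure D2:**
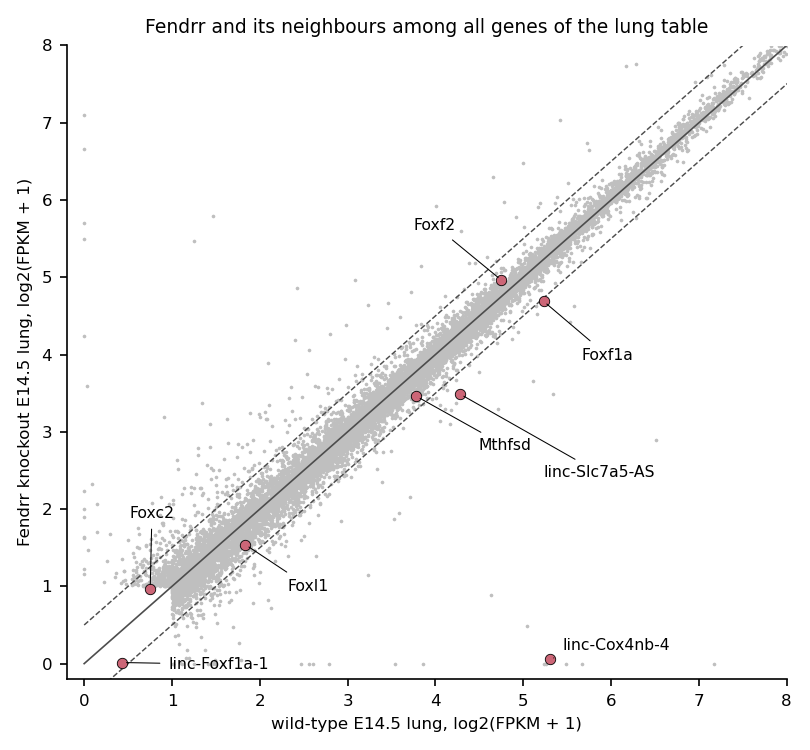
Level in Fendrr knockout lung against level in wild-type lung, both as log2(FPKM + 1), for genes at 1 FPKM or more in either group (grey) and the 8 named genes (red, 2 of them below that minimum); axes end at 8, the solid line marks equal levels and the dashed lines a difference of 0.5. linc-Cox4nb-4 lies at 0.06 in knockout, Foxf1a at the lower dashed line, linc-Slc7a5-AS below it and Foxf2 above the line of equal levels.

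Counted together, 6 of the 8 genes reached 1 FPKM in either lung group, and 3 of these were lower by 0.5 or more in knockout lung: linc-Cox4nb-4, Foxf1a and linc-Slc7a5-AS. Over all genes tested in this comparison, 1.43% were lower by this measure, and 1.96% were higher, while none of the 6 was higher. The counted genes include the deleted gene itself, and they were named with earlier results of these data known. In the Peril brain, 1 of the members (linc-Slc7a5-AS) differed by 0.5 or more in either direction, where 3.07% of all genes did. No member did so in the linc-Brn1b comparisons, where 10.1% (E13.5), 0.71% (E15.5) and 6.94% (P7) of all genes did, and only Foxf2 and Mthfsd reached the minimum.

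The genes around Fendrr were then examined by distance. Of 19 genes at 1 FPKM or more with a start within 1 Mb of the end coordinate of linc-Cox4nb-4, 4 were lower by 0.5 or more in knockout lung: linc-Cox4nb-4, Foxf1a, linc-Slc7a5-AS and linc-Klhdc4. None of the 19 was higher. Over all genes tested in lung, 1.43% were lower and 1.96% were higher by 0.5. The median difference of the 19 was -0.08, beside 0.00335 over all genes. Without linc-Cox4nb-4, 11 of the other 18 lay below 0, where 48.8% of all genes did. The paper, by its own test calls, found no enrichment of differential genes within 1 Mb of Fendrr beyond random intervals. On the side of Fendrr away from Foxf1a, the nearest gene at this level was Irf8, an interferon regulatory factor gene, at 3.50 and 3.31 FPKM (-0.06). Further out, Cox4i1, a cytochrome c oxidase subunit gene, stood at 396 and 438 FPKM (0.15), and 6430548M08Rik at 4.18 and 2.87 FPKM (-0.42). On the other side, Fbxo31, Map1lc3b, Zcchc14, Klhdc4 and Banp lay between -0.08 and 0.12.

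**Figure D3:**
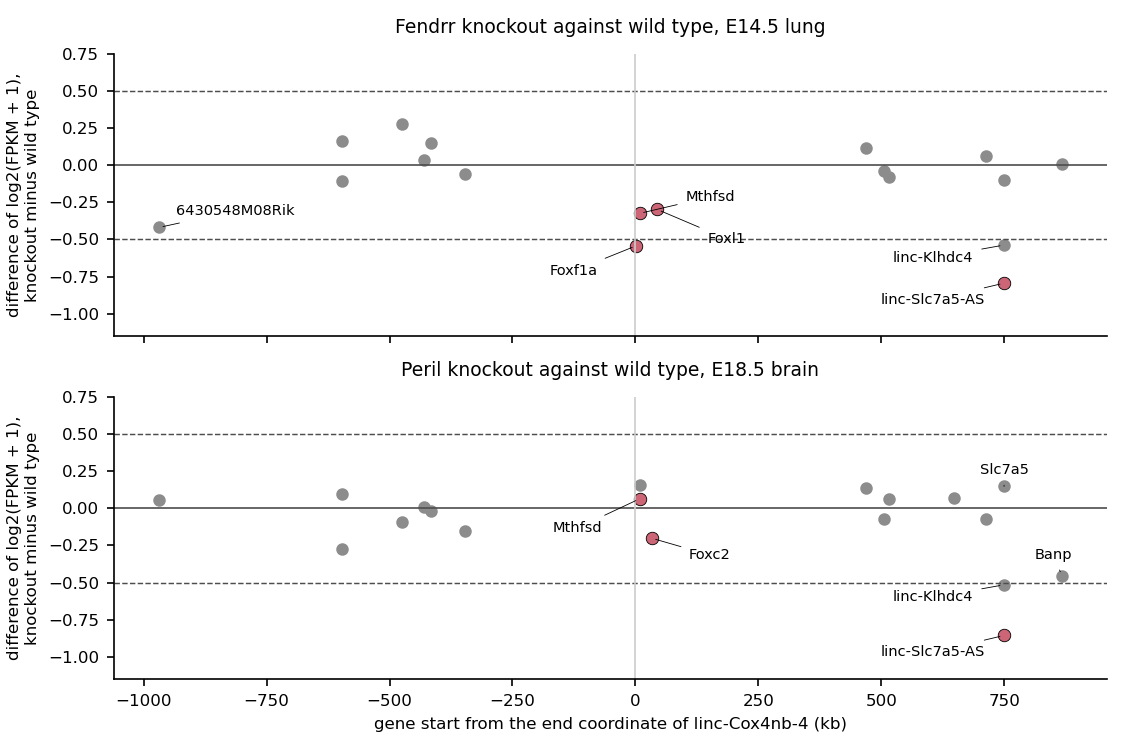
Difference of log2(FPKM + 1), knockout minus wild type, against the distance in kb of each gene start from the end coordinate of linc-Cox4nb-4, in Fendrr knockout lung (top) and Peril knockout brain (bottom); red points are the named members, grey points other genes at 1 FPKM or more, and linc-Cox4nb-4 is left out. In lung Foxf1a, Mthfsd and Foxl1 lie between -0.54 and -0.30, whereas linc-Slc7a5-AS and linc-Klhdc4 lie below -0.5 in both panels.

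In Peril brain, 2 of the 19 genes of the window passed 0.5, both lower: linc-Slc7a5-AS and linc-Klhdc4. The window held 2 of 17 such genes at E13.5 (Cox4i1 and Klhdc4, both lower), none of 17 at E15.5, and 2 of 18 at P7 (Klhdc4 lower and Banp higher). Of all genes, 3.07% (Peril), 10.1% (E13.5), 0.71% (E15.5) and 6.94% (P7) passed 0.5 in either direction. The genes nearest to the Fendrr start in the Peril window, Mthfsd, linc-Mthfsd-AS and Foxc2, had differences from -0.20 to 0.16.

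Foxf1a was the only one of 21 forkhead genes at 1 FPKM or more in lung that differed by 0.5, beside 44 listed. Over all genes at this level, 1.43% were lower and 1.96% were higher by 0.5. In all, 14 of the 21 lay below 0, where 48.8% of all genes did, with a median difference of -0.10. Foxj1, a gene of ciliated cells, stood at 2.21 and 1.34 FPKM (-0.45). Foxa1 and Foxa2, regulators of the lung epithelium, stood at 15.4 and 12.7 FPKM (-0.26) and at 16.0 and 13.9 FPKM (-0.19). Foxp1 stood at 15.6 and 13.2 FPKM (-0.23), Foxp2 at 21.4 and 19.6 FPKM (-0.12) and Foxp4 at 23.2 and 22.1 FPKM (-0.07). Foxc1 had the highest difference of the family, 0.25, at 0.799 and 1.13 FPKM.

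The hedgehog pathway, which acts upstream of Foxf1a in lung mesenchyme, differed little between the lung groups. None of 12 genes at 1 FPKM or more passed 0.5, and the median difference was 0.07. Among all genes at this level in lung, 1.43% were lower and 1.96% were higher by 0.5. At these shares, a list of this size with no gene past 0.5 does not stand out. The ligand Shh stood at 16.6 and 15.9 FPKM, the receptor Ptch1 at 85.8 and 79.2 FPKM and the effector Gli1 at 27.0 and 27.96 FPKM. Gas1, a co-receptor, had the largest difference, 0.41, and Gli2 differed by 0.17. Of 12 lung mesenchyme genes at this level, none was lower by 0.5 and 1 was higher, with a median of 0.12. Osr1, a transcription factor gene of the lung mesenchyme, stood at 8.86 and 14.7 FPKM (0.67), Wnt2b at 5.83 and 7.95 FPKM (0.39), Hoxb5 at 24.2 and 28.2 FPKM (0.21) and Wnt2 at 32.6 and 37.1 FPKM (0.18). Of the 11 PRC2 genes, none passed 0.5, with a median of 0.03. Phf1 and Ezh1 had the lowest values, -0.32 and -0.28.

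Most vessel genes had small differences in the direction of Foxf1a. Of 16 endothelial genes, all at 1 FPKM or more, 14 lay below 0 in knockout lung (48.8% of all genes did), 1 was lower by 0.5, and the median difference was -0.22, beside 0.00335 over all genes. Sox17, a transcription factor gene of arterial endothelium, stood at 8.97 and 5.65 FPKM (-0.59), the tight junction gene Cldn5 at 49.4 and 35.6 FPKM (-0.46), and the receptor genes Tie1 and Tek at 46.3 and 35.7 FPKM (-0.37) and at 24.01 and 18.4 FPKM (-0.37). In brain the same list had medians of -0.24 (Peril), -0.38 (E13.5), 0.00152 (E15.5) and -0.07 (P7). The medians over all genes were 0.00345, 0.0580, 0.00528 and 0.0115 in the same order. How the lung and brain medians relate to Fendrr was not tested. Of 10 smooth muscle genes, 7 lay below 0 and 1 was lower by 0.5, with a median of -0.11. By the same measure, 1.43% of all genes in lung were lower and 1.96% were higher. Myh11, the smooth muscle myosin heavy chain gene, stood at 28.4 and 17.4 FPKM (-0.68), Des at 20.3 and 26.5 FPKM (0.37), Synpo2 at 3.17 and 2.32 FPKM (-0.33) and Actg2 at 36.4 and 29.9 FPKM (-0.28).

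Several heart transcription factors and all heart muscle markers were higher in knockout lung. For comparison, 1.96% of all genes at 1 FPKM or more in lung were higher by 0.5 and 1.43% were lower. Of 10 lateral plate and heart transcription factor genes, 4 were higher by 0.5 and none was lower, with a median of 0.21: Tbx20 (1.52 and 3.82 FPKM), Gata4 (3.41 and 7.43 FPKM), Hand2 (0.9998 and 2.17 FPKM) and Nkx2-5 (0.515 and 1.196 FPKM). All 10 cardiac muscle markers were higher by 0.5, with a median difference of 1.56, and their summed level was 319 FPKM for wild type against 991 FPKM for knockout, with none at 0. The largest differences were those of Nppa (1.77 and 54.2 FPKM) and Ankrd1 (4.37 and 27.99 FPKM). All 5 skeletal muscle markers that reached 1 FPKM were higher by 0.5, and the summed level over 8 markers was 21.4 and 46.8 FPKM. The markers Myod1, Myf5 and Myog stayed below 1 FPKM, at 0.160 and 0.161, 0.0611 and 0.0799, and 0.673 and 0.853 FPKM. Of 6 mesothelial markers, 1 was higher by 0.5 (summed level 101.3 and 118 FPKM). Erythroid markers went the other way, with a summed level of 1183 and 659 FPKM over 6 of 7 listed markers. The part of these tissues in the values of Foxf1a, Foxf2 and the other members was not tested.

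**Figure D4:**
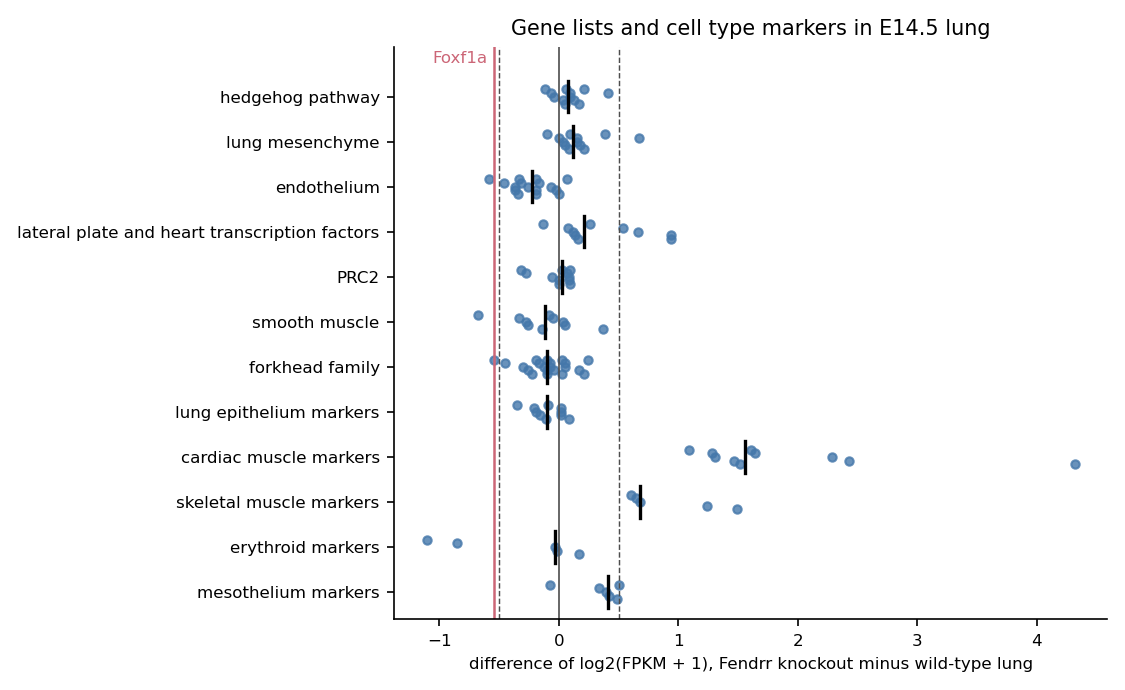
Difference of log2(FPKM + 1), Fendrr knockout minus wild-type lung, on the horizontal axis for each gene at 1 FPKM or more (points) of the lists named on the vertical axis, with the median of each list (black bar), the limits of 0.5 (dashed) and the value of Foxf1a (red line). The cardiac muscle markers all lie above 1, the hedgehog pathway lies within the limits, and endothelial genes centre on -0.22.

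The genes whose levels were most like those of Foxf1a over the 10 groups were sought by the Euclidean distance in log2(FPKM + 1) among 33692 symbols listed once in each table. The nearest were Actg2 (distance 0.308), a smooth muscle actin gene, Tspan8 (0.506), Ccl11 (0.586), Myh11 (0.736) and Iigp1 (0.737). In lung these spanned 28.3 to 36.4 FPKM without and 17.4 to 31.4 FPKM with the deletion. Fendrr could be compared over only the 4 lung and Peril groups, among 42026 symbols. The nearest to linc-Cox4nb-4 were GU332589, AK018753,X57780, Mir467f, Gm6724 and linc-Bola3, of which the first 3 were at 36.8 to 49.9 FPKM in wild-type lung and listed at 0 in the other 3 groups. A value of exactly 0 can be a failed estimate in such tables. With so few groups, these distances mostly separate lung from brain, and for Fendrr wild-type lung from the other groups.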

How the data were processed

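Total RNA of E14.5 lung and of embryonic and P7 brain was sequenced after TruSeq library preparation as paired-end 101 bp reads, which the authors aligned to mm9 with TopHat2 and quantified with Cufflinks (2.0.2 in the submitters' processing notes) and Cuffdiff2. The expression values the authors deposited are FPKM, pooled to 1 value per group in each of 3 tables (0 columns of values per sample). Depth, spread and intervals are therefore unknown, and no test was made. The tables also hold the authors' own fold changes, test statistics, p-values and q-values, which were not used. From the FPKM, differences of log2(FPKM + 1) were computed within each table with Python 3.11.15, NumPy 2.4.6 and pandas 2.3.3. Genes were counted at a difference of 0.5 if at 1 FPKM or more in either group. The code for the calls was checked on a copy of the lung values with planted differences and no noise. That check says nothing about the reliability of a call from 1 value per group. Starts in the tables count from 0, and 1 was added. Annotation was GENCODE for mm9 (NCBIM37), and promoter windows were those of RefSeq (GRCm38.p6). Deletion coordinates and primers are those of the study's supplement. Genes named are the 8 members, the 5 nearest in pattern, and genes of the 1 Mb window at 1 FPKM or more in lung. By the same rule, forkhead genes at that level and up to 4 genes of each list with the largest lung difference were named. Shh, Ptch1, Gli1, Nkx2-1, brain markers, Myod1, Myf5, Myog, AK004221, linc-Foxf1-1, linc-Emc8 and linc-Mthfsd-AS were named outside this rule after their values were seen. A gene that this rule selects is not reported here. Members and lists were chosen with earlier results of these data known.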

Additional observations from a re-analysis of the deposited data

How the results depend on the processing

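The tables give 1 value per group, so neither an error nor a detection limit could be set, and leaving out each library and the replicate block were not run. No paired analysis was possible because no values per library were used here. Of 272 alternatives, 43 took a difference across 0.5 or moved a count, or a difference past 0.5, by over 1.5 times or changed the genes nearest in pattern, and 0 turned the direction of a difference past 0.5. Differences below 0.5 could move more without crossing it, as that of Foxc2 in lung from 0.22 to 0.49 as a plain ratio. The difference of Foxf1a in lung lay between -0.58 and -0.54 throughout. That of linc-Cox4nb-4 was -8.05 with a pseudocount of 0.1 and -9.74 as a ratio without one, because its knockout level is near 0. Requiring a difference of 1 left 1 member lower in lung and 0 past it in Peril brain, and in the window 1 gene lower in lung, 0 in Peril brain, 1 at E13.5 and, at P7, 0 lower and 0 higher. A pseudocount of 0.1 and the plain ratio each brought 1 member (Foxf2) past 0.5 at E13.5 and 2 window genes lower at P7, as did centring on the median at P7 (2). A minimum of 5 FPKM left 1 window gene lower in Peril brain and 0 higher at P7. A window of 0.5 Mb held 2 lower genes in lung, 0 in Peril brain, 1 at E13.5 and, at P7, 0 lower and 0 higher. A window of 2 Mb held 5 lower genes at E13.5 and, at P7, 2 lower and 3 higher. By Pearson correlation, 0 of the 5 genes nearest to Foxf1a and 0 of the 5 nearest to linc-Cox4nb-4 were kept.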
